A study of Mus musculus with 4 samples.

Results

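The narrow 5' UTR labelled peaks are short stretches of mRNA near the beginning of a transcript that were enriched by an antibody against N6-methyladenosine (m6A) in mouse natural killer (NK) cells. They were chosen by the region label of each peak in the deposited list, which had to begin with 5' UTR, and by a genomic span of at most 300 nt from the first to the last base. There were 1225 such peaks in 1114 genes, out of 20727 distinct peaks in 12351 genes, and they were 1225 of the 3833 peaks with a 5' UTR label. The other 2608 peaks with that label spanned more than 300 nt, and 68.5% of the 2386 with exonic bases on the longest coding transcript covered more than 1 exon, so that introns added to their span.

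The cells were splenic NK cells of C57BL/6 mice, with no knockout in either group. Per the study's methods they had been expanded in the animals for weeks with a plasmid that expresses IL-15, the cytokine on which NK cells depend, and were then sorted, so the list describes NK cells under raised IL-15. Poly(A) RNA was fragmented, and 2 m6A immunoprecipitate libraries were set against 2 input RNA libraries made from fragments that had not been pulled down. The deposited list held 1 fold enrichment (immunoprecipitate over input, a ratio) and 1 peak-calling p for each peak and no value per library, so the sequencing depth is unknown, no spread between replicates can be given and no difference below was tested across replicates.

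m6A is placed on nascent mRNA by the METTL3 and METTL14 methyltransferase complex within the DRACH consensus (where D stands for any base but C, R for a purine and H for any base but G), of which GGAC is a preferred core. Most m6A lies in long internal exons, around stop codons and in 3' UTRs. At the very 5' end another methylated adenosine is found, N6,2'-O-dimethyladenosine (m6Am) next to the cap, which is written by PCIF1 and which antibodies raised against m6A also bind. Peaks near the start of a transcript can therefore come from either base, and the assay does not separate them.

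Of the 20 peaks that were named for the lowest p or the highest fold enrichment, the following 9 held GGAC in their exonic bases on the longest coding transcript. They are shown because they give the letters under the peaks that lead the list by either measure. Each is 30 bases of the GRCm38.p6 genome (RefSeq), written 5' to 3' on the strand of the gene, and the capitals mark the GGAC nearest to the peak centre.
Hbb-bs, chr7:103827634-103827663, minus strand: gttgtctacccttGGACccagcggtacttt
Tmsb10, chr6:72957982-72958011, minus strand: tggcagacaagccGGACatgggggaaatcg
Rpl37a, chr1:72711290-72711319, plus strand: ctcttcGGACttgggcttgggttccggcga
Id2, chr12:25095947-25095976, minus strand: aaaacagcctgtcGGACcacagcttgggca
Crnkl1, chr2:145934786-145934815, minus strand: aagtctccacagaGGACgcgcacacagttg
Tfeb, chr17:47737157-47737186, plus strand: cggcgggaagggcGGACggggcgggtctgg
Rpl7, chr1:16104455-16104484, minus strand: ccggcttatctcaGGACagctataaggcgt
Mbd3, chr10:80399343-80399372, minus strand: gcggaggcccgtgGGACagaacagctgcgg
Ube2k, chr5:65537266-65537295, plus strand: ggtgcgcatgcgcGGACccggcgccatttt
In 7 of these 9 the base after GGAC was A, C or T, which makes a full DRACH site, and in Crnkl1 and Tfeb it was G. The site lay in the 5' UTR in 6 of them. In Hbb-bs, Tmsb10 and Id2 it lay in the coding sequence, 114, 16 and 49 nt after the first base of the start codon. The site in Rpl37a lay 8 nt from the annotated transcript start, and that in Ube2k 48 nt from it. A match of letters is a description of the sequence and not a measured methylation site.

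The label fitted most of the peaks. Of the 1225 peaks, 1213 were assigned to a protein-coding gene and 1167 (95.3%) overlapped an annotated 5' UTR of some coding isoform of that gene. The remaining 58 touched no such 5' UTR, and 15 touched no exon of their gene at all. On the longest coding transcript 1065 peaks could be placed, and 160 had no exonic base there. Among the placed peaks the centre lay in the 5' UTR in 76.0% (95% Wilson interval 73.3 to 78.4%), in the coding sequence in 23.5% and in the 3' UTR in 6 peaks. Of the 250 peaks that were centred in the coding sequence 213 included the start codon, as did 38.7% of all placed peaks.

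The peaks lay near the 5' end of their transcripts, which the 5' UTR label and the span limit largely fix in advance. The median centre lay 104 nt from the transcript start (interquartile range 60 to 199). It lay 92 nt before the start codon (median position -92, interquartile range -222 to -2), so the 2 distances were similar. The transcripts had a median 5' UTR of 240 nt. Almost all peaks were single-exon stretches (98.3%), which the span limit favours, with a median exonic length of 120 nt. The first base of the annotated transcript lay inside 536 of the 1065 placed peaks (50.3%). With the coding transcript whose start lay nearest to the peak, 715 of 1129 peaks (63.3%) included a transcript start.

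**Figure D1:**
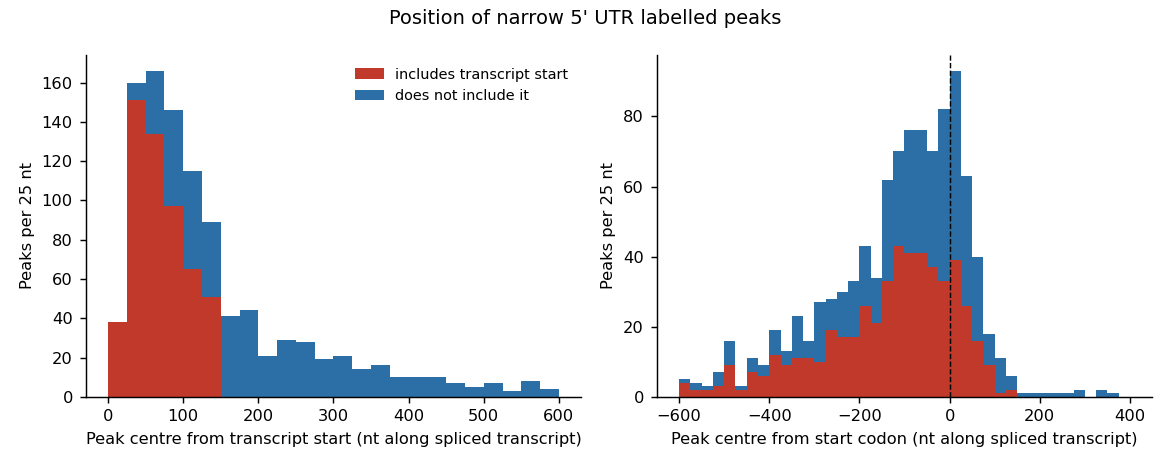
Number of narrow 5' UTR labelled peaks per 25 nt by the distance of the peak centre from the transcript start (left) and from the start codon (right, dashed line), along the spliced longest coding transcript; red bars are the 536 peaks that include the first transcript base and blue bars the 529 that do not, stacked. The medians are 104 and -92 nt, and 54 and 64 centres lie beyond the axes; a peak with the start inside cannot be centred far from it because its span is at most 300 nt.

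The enrichment of the narrow 5' UTR labelled peaks was moderate. Their median fold enrichment was 2.92 (95% interval of the median 2.76 to 3.08), and the middle 50% of values ran from 1.90 to 5.69 within a whole range of 1.06 to 53.1. Peaks with a fold enrichment of at least 5 are called strong here. There were 330 strong peaks among the 1225 (26.9%, 24.5 to 29.5%), while 34.6% of all peaks in the list were strong. A peak-calling p under 0.001 was reached by 532 of them (43.4%, 40.7 to 46.2%), while 61.5% of all peaks reached it. Both measures were met by 122 peaks (9.96%). The median fold enrichment of all peaks was 2.66 (2.61 to 2.71), and 36.1% of all peaks but 29.0% of the narrow 5' UTR labelled ones had a fold under 2. The narrow 5' UTR labelled peaks thus had the higher median and the smaller shares of strong peaks and of peaks with a p under 0.001. Among peaks that could be placed on the longest coding transcript the strong share was 26.4% both of the narrow 5' UTR labelled peaks and of all peaks.

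The comparison depended on the peaks that were set beside them. Narrow peaks with a 3' UTR label, 6811 in number, had a lower median fold enrichment of 1.86 (1.85 to 1.90) and were strong in 10.2% (9.46 to 10.9%), but reached a p under 0.001 more often, in 57.8% (56.6 to 58.9%). The 2438 narrow peaks with an exon label had a median of 3.03 (2.84 to 3.16) and were strong in 28.0% (26.3 to 29.8%), whose interval overlaps that of the narrow 5' UTR labelled peaks. When only peaks on the longest coding transcript were counted, 26.4% (23.8 to 29.1%) of the narrow 5' UTR labelled peaks were strong against 9.59% (7.92 to 11.6%) of the narrow exon labelled ones. The wider 5' UTR labelled peaks were stronger, with a median of 11.4 and 67.5% strong.

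**Figure D2:**
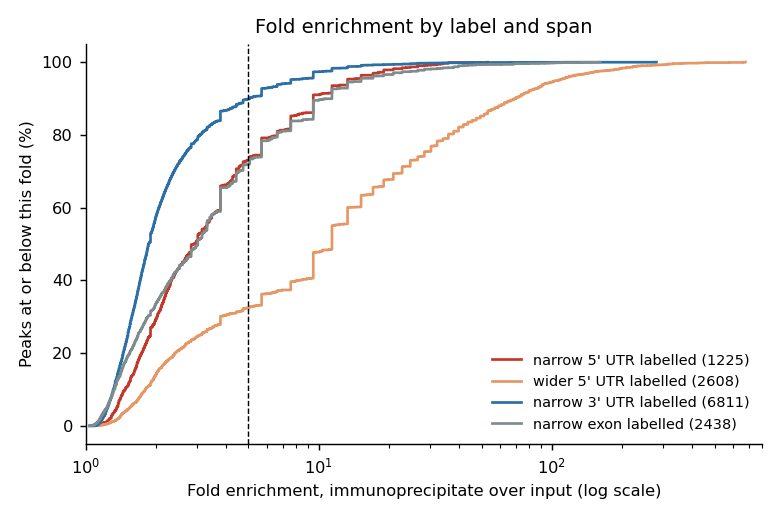
Share of peaks (%, vertical axis) with a fold enrichment at or below the value on the horizontal log axis, for the 4 sets of peaks named in the key with their numbers; the dashed line is a fold enrichment of 5. The narrow 5' UTR labelled curve (median 2.92) runs to the right of the narrow 3' UTR labelled curve (median 1.86), close to the narrow exon labelled curve (median 3.03) and far to the left of the wider 5' UTR labelled curve (median 11.4), and the vertical jumps are fold values that many peaks share.

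Those jumps mark a property of the deposited fold values that bears on most strong peaks. The fold values are given to 3 significant digits, and many were whole multiples of 1 common step of 1.90, to within the rounding of the last digit. Among the narrow 5' UTR labelled peaks, 82 had a fold enrichment of 3.79, 60 one of 9.48, 58 one of 5.69 and 44 one of 7.59, which are 2, 5, 3 and 4 steps. Of their 330 strong peaks, 255 (77.3%) lay on whole multiples of the step, and in the whole list 82.9% of strong peaks did. Off the step here means off whole multiples only, since fractions of the step were not looked for. Among the 860 such peaks, 8.72% (7.01 to 10.8%) were strong, with a median fold of 2.25. The wider 5' UTR labelled peaks lay on the step in 64.3%, and off it 17.6% (15.3 to 20.2%) of 932 were strong, with a median of 2.31. The list gives no read counts, so what the step stands for cannot be read from it, and its part in the strong folds was not tested.

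The transcript start divided the peaks by fold enrichment. The 536 peaks that included it had a median fold enrichment of 3.98 (3.79 to 4.43), and 224 of them (41.8%, 37.7 to 46.0%) were strong. The 529 peaks that did not include it had a median of 2.15 (2.05 to 2.23), and 57 (10.8%, 8.41 to 13.7%) were strong. Read from the other side, 79.7% of the strong placed peaks included the transcript start, as did 48.3% of those with a fold between 2 and 5 and 27.1% of those under 2. The p-values did not divide in the same way, since 43.3% of peaks with the start and 47.3% of those without it reached a p under 0.001.

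Fold values on the common step moved with this division, since 43.5% of peaks with the start and 14.6% of those without it lay on a whole multiple. Among peaks off whole multiples the division was still seen. Of 303 such peaks with the start 17.8% (13.9 to 22.5%) were strong, and of 452 without it 3.10% (1.85 to 5.13%) were. Fold values shared by several peaks, such as 18 and 8.53, remained among them. These peaks can therefore not be taken as free of stepped values, and whether the division holds without such values was not tested. With the coding transcript of nearest start the shares were 37.8% of 715 and 10.9% of 414.

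The start codon went with a smaller strong share among peaks with the transcript start and with a like one among the others. Peaks with the transcript start but not the start codon, 338 in number, had a median fold enrichment of 4.58 and were strong in 47.3% (42.1 to 52.7%). The 198 peaks that held both had a median of 3.79 and were strong in 32.3% (26.2 to 39.1%). Of the 214 peaks with the start codon alone 9.81% (6.51 to 14.5%) were strong, and of the 315 with neither 11.4% (8.37 to 15.4%) were. A p under 0.001 was reached by 53.5% of the peaks with both and 59.3% of those with the start codon alone, against 37.3% of those with the transcript start alone and 39.0% of those with neither.

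**Figure D3:**
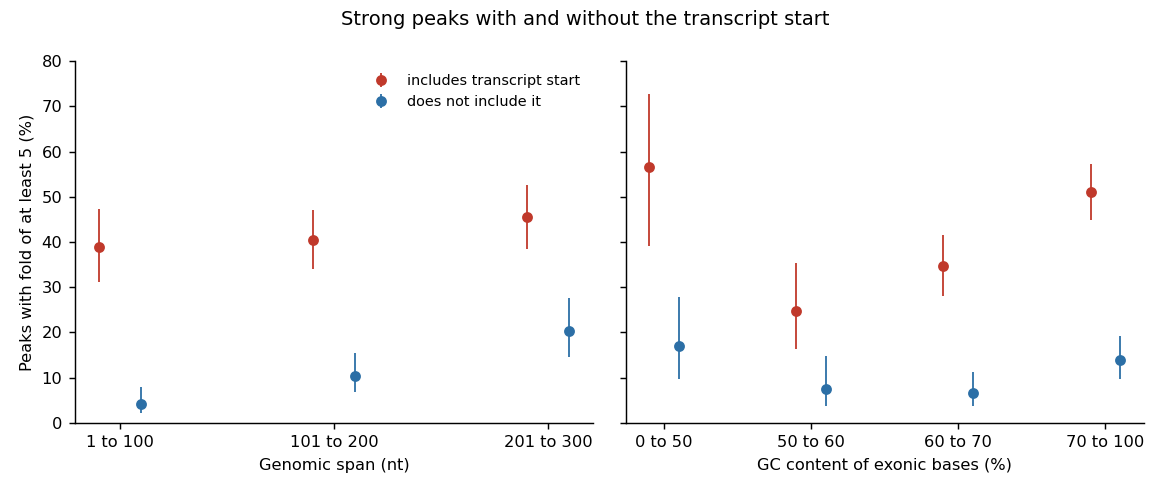
Share of narrow 5' UTR labelled peaks with a fold enrichment of at least 5 (%, vertical axis) in classes of genomic span (left) and of GC content of the exonic bases (right); points are shares and bars 95% Wilson intervals, red for peaks that include the transcript start and blue for those that do not. In each of the 7 classes the red point lies above the blue one, and the bars do not overlap.

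The division was present in every class of span and of GC content. In peaks of 100 nt or less, 39.0% of 136 with the start and 4.12% of 194 without it were strong, and in peaks of 201 to 300 nt 45.5% of 187 and 20.3% of 143 were. In the most GC-rich peaks, those with a GC content of at least 70%, the shares were 51.0% of 241 and 13.9% of 202. The smallest class, peaks with the start and a GC content under 50%, held 30 peaks, of which 56.7% (39.2 to 72.6%) were strong.

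The base at the annotated transcript start is the base that m6Am would occupy if it is an adenosine. Among the peaks that included the start, 126 transcripts began with A, and 47.6% (39.1 to 56.3%) of these peaks were strong, with a median fold enrichment of 4.72 (3.79 to 5.69). The strong share was 40.8% (35.1 to 46.9%) of 262 peaks with G, 37.2% (28.1 to 47.3%) of 94 with C and 40.7% (28.7 to 54.0%) of 54 with T. All these intervals overlap. Where the start lay outside the peak, 7.34% of 109 peaks on transcripts that begin with A were strong. The start bases come from the annotation, and the start that NK cells use was not measured here.

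The bases under the peaks were rich in G and C. The median GC content of the exonic bases was 67.7% (interquartile range 60 to 74%), against 44.6% in narrow 3' UTR labelled peaks, 57.4% in narrow exon labelled peaks and 54.8% in the wider 5' UTR labelled peaks. A GC content of at least 70% was found in 41.6% of the narrow 5' UTR labelled peaks and in 0.420% of the narrow 3' UTR labelled ones.

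DRACH sites were sparse in them. At least 1 DRACH site lay in 71.5% (68.7 to 74.1%) of the placed peaks, and the density was 11.5 sites per kb on the transcript strand, against 20.4 per kb in narrow 3' UTR labelled peaks and 17.9 per kb in narrow exon labelled peaks. The density fell with GC content within the narrow 5' UTR labelled peaks, from 20.9 per kb in peaks under 50% GC to 15.3, 12.3 and 8.22 per kb in the classes from 50, 60 and 70%. In the same classes narrow 3' UTR labelled peaks had 21.1, 19.7, 15.9 and 10.9 per kb, and narrow exon labelled peaks 23.7, 21.8, 14.2 and 7.46 per kb. At similar GC content the densities lay below those of narrow 3' UTR labelled peaks in each class, by less than over all peaks, while against narrow exon labelled peaks they were lower in the first 3 classes and higher in the last. Over all placed peaks GGAC had 5.24 per kb, against 3.51 per kb in narrow 3' UTR labelled and 5.85 per kb in narrow exon labelled peaks. At similar GC content it was sparser than in both. In the 4 classes the narrow 5' UTR labelled peaks had 2.30, 4.83, 5.29 and 5.83 per kb. Narrow 3' UTR labelled peaks had 2.60, 5.23, 6.43 and 7.82 per kb, the last from 26 peaks. Narrow exon labelled peaks had 4.01, 6.12, 6.59 and 6.62 per kb.

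DRACH density and fold enrichment did not rise together. Peaks with the transcript start had 10 DRACH sites per kb and those without it 13.4 per kb. Strong placed peaks had 10.3 per kb and peaks with a fold under 2 had 13.9 per kb. Their median GC content was 70.5% and 64.2%. DRACH density fell with GC content, and the part of GC content in this difference was not tested. An ATG upstream of the annotated start codon, a feature known to lower translation of the main reading frame, lay among the 5' UTR bases of 300 of 1018 peaks (29.5%).

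Fold enrichment and significance picked different peaks. None of the 10 peaks with the lowest p was strong, and no peak was among the first 10 by both measures. The lowest p of all belonged to Hbb-bs (ENSMUSG00000052305), the adult beta globin gene, at chr7:103827631-103827895, with a log10 p of -2440 at a fold enrichment of 2.69. The second lowest was at Hba-a1, an alpha globin gene, at chr11:32283656-32283897, with a log10 p of -788 at a fold of 1.98. Hba-a1 has a near-identical copy, Hba-a2, and reads could have been split between them.

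Globin is made by red cells, so the markers of other cell types are given here for the whole list. All 10 NK cell markers had a peak of some kind, and Ncr1 and Eomes had a narrow 5' UTR labelled one. A peak of some kind was found for 3 of 4 erythroid markers, namely Hbb-bs, Hba-a1 and Klf1, and each of these had a narrow 5' UTR labelled peak. For Hbb-bs and Hba-a1 this was known beforehand from their p. The globin gene Hba-a2 had an exon labelled peak (fold 37.9) and Hbb-bt a wider 5' UTR labelled one (2.02), and neither had a narrow 5' UTR labelled one. A peak of some kind was also found for 3 of 6 T cell markers, 3 of 5 B cell markers and 5 of 5 myeloid markers. Of these, 1 myeloid marker had a narrow 5' UTR labelled peak and no T or B cell marker did. Over all genes with a peak, 9.02% had a narrow 5' UTR labelled one. A peak list holds no expression levels, so the amount of RNA from other cells and its part in these results was not tested.

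The other peaks of very low p lay in genes that are known to be highly expressed in lymphocytes. Tmsb10, which encodes an actin-binding thymosin, reached a log10 p of -380 with a fold of 2.19 at chr6:72957912-72958120, over its start codon. The ribosomal protein genes Rpl37a, Rps25, Rpl28 and Rpl35a had folds of 2.45, 1.94, 3.79 and 2.16. Id2, a transcriptional inhibitor that NK cell development needs, had a fold of 2.22 and a log10 p of -142 at chr12:25095868-25096105. B2m, the light chain of MHC class I, had a fold of 1.35 and a log10 p of -136 in a 60 nt peak that included its transcript start. A further peak, assigned to Gm20721 on the minus strand at chr2:174346415-174346712 (fold 1.81, log10 p -260), also held an exon of Gnas, so its gene is uncertain.

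The 10 highest folds among peaks with a p under 0.001 ran from 30.3 to 53.1, and 8 of these 10 peaks included the transcript start. Mapk3 (ENSMUSG00000063065), which encodes the kinase ERK1 of the MAPK cascade, led with a fold of 53.1 and a log10 p of -11.7 at chr7:126759601-126759779, a 179 nt peak over the transcript start and the start codon. Its 3' UTR labelled peak had a fold of 1.76. Tfeb, a transcription factor of lysosomal genes, Btbd10 and the splicing factor gene Crnkl1 each had a fold of 36.0 and a log10 p of -7.67. The Crnkl1 peak also held an exon of Cfap61, so that peak is uncertain.

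Others in this group were the ribosomal protein gene Rpl7 and the mRNA export gene Chtop, both with a fold of 34.1. Mbd3, a subunit of the NuRD chromatin complex, had a fold of 33.2 and a log10 p of -15.8 at chr10:80399254-80399550. Anxa7, a calcium-dependent membrane-binding annexin, had a fold of 32.2, and Hp, which encodes the haemoglobin-binding protein haptoglobin, had 30.3. Of these 10 folds, 8 were whole multiples of the common step, all but those of Mbd3 and Ube2k.

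Ube2k (ENSMUSG00000029203), a ubiquitin-conjugating enzyme gene, came nearest to leading in both measures. Its peak at chr5:65537233-65537502 had a fold of 31.9 and a log10 p of -95.3, and it ran from the transcript start past the start codon. Other peaks assigned to Ube2k had folds of 4.43, 19.0, 4.43, 1.61 and 9.48, so the narrow 5' UTR labelled peak was the highest of the gene. Hnrnpl, a splicing regulator gene, had a fold of 10.1 and a log10 p of -56.4 in a peak over a start codon, and a second one with 2.30. Emp3, a membrane protein gene, had a fold of 29.1 and a log10 p of -35.4 at chr7:45921255-45921404, on a coding isoform other than the longest.

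**Figure D4:**
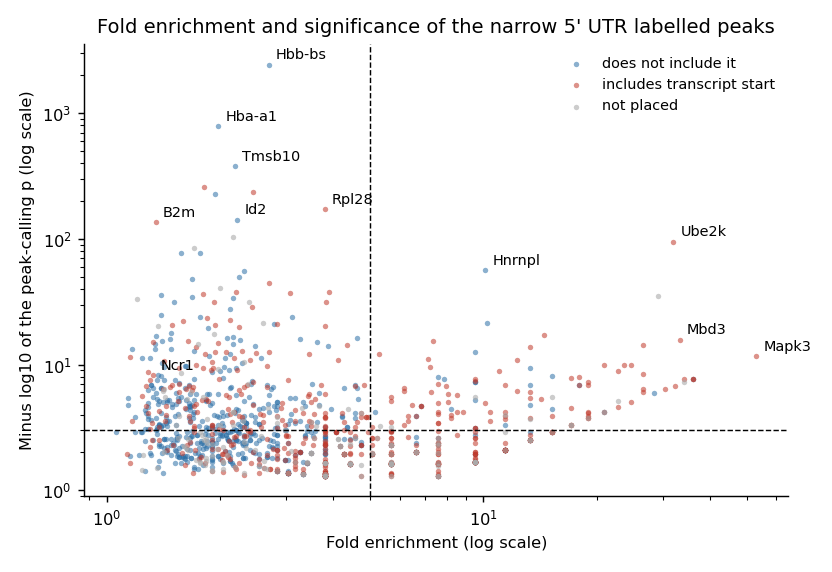
Fold enrichment (horizontal log axis) and minus log10 of the peak-calling p (vertical log axis) of the 1225 narrow 5' UTR labelled peaks; red points include the transcript start, blue points do not, grey points could not be placed, and the dashed lines mark a fold of 5 and a p of 0.001. Hbb-bs has the lowest p at a fold of 2.69, Mapk3 the highest fold at a log10 p of -11.7, and the vertical rows of points are folds on the common step.

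Gene lists were read against the background that 9.02% of all genes with a peak had a narrow 5' UTR labelled one, and 10.8% of the protein-coding genes with a peak. The share of a list is given over its genes with any peak, since a gene without a peak may not have been covered. The lists were written with results of these data known, and the counts carry no test. Many strong narrow 5' UTR labelled folds named for these lists were whole multiples of the common step, which other peaks share. These were the folds of Shc1, Gsk3a, Akt2, Eif4e, Eif4h, Apaf1, Usp18 and Zfp827. Those of E2f2, Bcl2, Birc2 and Hist1h2ab were not whole multiples.

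Cytosolic ribosomal protein genes, chosen by symbol, had a narrow 5' UTR labelled peak in 22 of 78 (28.2%, 19.4 to 39.0%). Of their 24 peaks 21 had a p under 0.001 but only 4 were strong, with a median fold of 2.10. The most significant were Rpl37a, Rps25 and Rpl35a above, Rpl28 with a fold of 3.79 and a log10 p of -172, and Rpl18 with a fold of 1.77. On the coding transcript with the nearest start the centres of the Rpl28 and Rpl18 peaks lay 62 and 68 nt from the start. Ribosomal protein genes have many processed pseudogenes, with which reads can be shared, so these counts are uncertain.

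Histone genes had one in 11 of 37 (29.7%, 17.5 to 45.8%). Their mRNAs are short and have short 5' UTRs, and the named peaks of core histones, in Hist1h4c, Hist1h2ae, Hist1h4i, Hist1h2ab and Hist2h4, were all centred in the coding sequence and all included the transcript start. The folds ran from 1.83 to 6.16, and 2 of 11 were strong, one of them Hist1h2ab with 6.16. H1f0, a linker histone, had a fold of 1.90. Histone genes are near-identical copies of each other and replication-dependent ones lack a poly(A) tail, so their counts are uncertain.

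Cell cycle genes had one in 9 of 38 (23.7%, 13 to 39.2%), and 2 of the 9 peaks were strong. E2f2, a transcription factor of S phase entry, had a fold of 7.11 and a log10 p of -11.1. The D-type cyclin genes Ccnd3 and Ccnd2 had folds of 3.67 and 1.98, and the mitotic kinase gene Aurkb had 3.48 in a 60 nt peak at its transcript start.

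BCL-2 family and death receptor genes had one in 5 of 22 (22.7%, 10.1 to 43.4%). Of their 7 peaks 4 were strong and 2 had a p under 0.001. Apaf1, the core of the apoptosome, had a fold of 17.1 and a log10 p of -3.33 at its transcript start. Bcl2, the survival factor that IL-15 sustains in NK cells, had a fold of 5.06 (log10 p -2.59) in a peak at the transcript start. A second one, centred 1107 nt from the start, had 1.26. The 3' UTR labelled peaks of Bcl2 had folds of 1.82, 9.75 and 125. Mcl1, another survival factor of NK cells, had 2.79 over its start codon. Birc2, an inhibitor of apoptosis, had 2 overlapping peaks of fold 6.64, and Bcl2l1 had 3.41.

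PI3K-AKT-mTOR genes had one in 7 of 33 (21.2%, 10.7 to 37.8%). Eif4ebp1, the translation repressor that mTOR phosphorylates, had a fold of 3.02 and a log10 p of -7.61 over transcript start and start codon. Gsk3a, a kinase that AKT inhibits, had 9.48 and -7.24. Akt2 had 9.48 at the transcript start with a log10 p of -2.59 and 2.07 further down. Foxo3 had 4.43 and Pik3r1 3.79, neither with a p under 0.001.

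IL-15 receptor, JAK-STAT and SOCS genes had one in only 2 of 22 (9.09%, 2.53 to 27.8%), close to the background. Shc1, an adaptor to the Ras and MAPK cascade, had a fold of 9.48 and a log10 p of -5.21, and Socs4 had 2.21. NK effector and receptor genes had one in 4 of 34 (11.8%, 4.67 to 26.6%), and none of these was strong. Ncr1, which encodes the activating receptor NKp46, had a fold of 1.33 and a log10 p of -8.24, Tnf 1.84, Klra9 1.29 and Klrc2 1.13. The last 2 belong to receptor families of similar sequence and are uncertain.

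Lymphoid transcription factor genes had one in 8 of 43 (18.6%, 9.74 to 32.6%), none strong, among them Id2 with 2.22, Eomes with 2, Fos with 1.15, Fosb with 2.60, Batf with 1.23 and Lef1 with 3.32. Translation initiation factor genes had one in 8 of 40 (20.0%, 10.5 to 34.8%). Eif4e, the cap-binding protein, had a fold of 11.4 with a log10 p of -2.92, Eif4h had 5.69 and Eif6 had 1.39. The m6A writers, erasers and readers had one in 2 of 23 (8.70%), the reader Hnrnpa2b1 with a fold of 1.94 and a log10 p of -20.8 at its transcript start and Pcif1, the m6Am writer, with 1.45.

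The other lists had intervals that included both backgrounds. They were heat shock chaperones with 4 of 26 genes (15.4%), E3 ubiquitin ligases and partners with 5 of 31 (16.1%), nuclear-encoded oxidative phosphorylation genes with 12 of 86 (14.0%), splicing factors with 6 of 48 (12.5%), histone and DNA modifying enzymes with 5 of 50 (10%), proteasome subunits with 4 of 45 (8.89%), zinc finger Zfp genes with 17 of 216 (7.87%) and interferon response genes with 2 of 36 (5.56%). Zfp827 had the highest fold of the zinc finger genes, 26.6 with a log10 p of -14.4. Hspa1a and Hspa1b, inducible heat shock genes known for cap-independent translation, had folds of 1.33 and 1.14. The interferon-induced genes Usp18 and Zbp1 had 7.59 and 1.38.

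**Figure D5:**
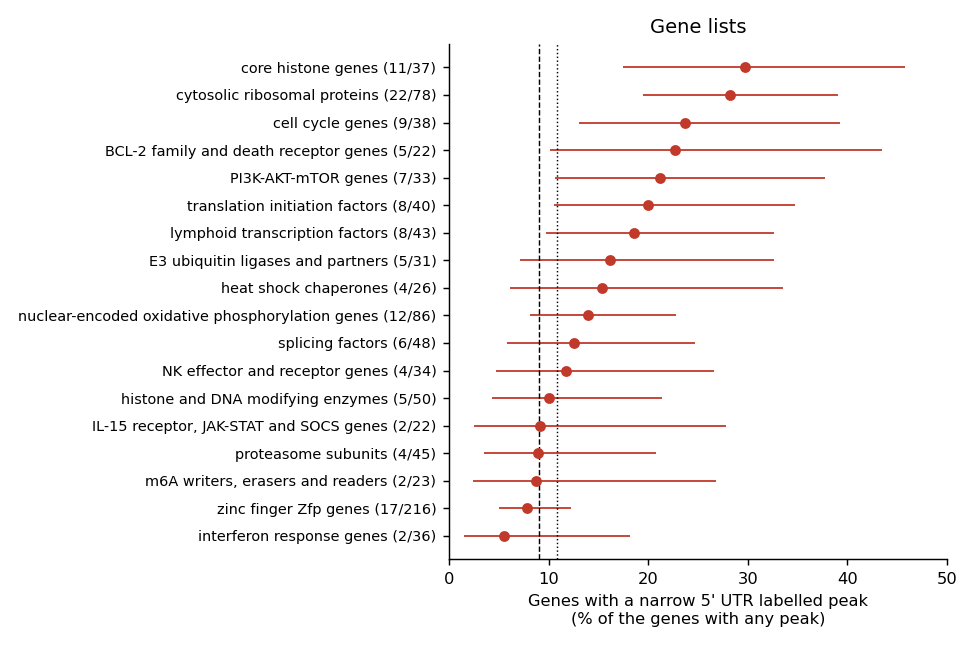
Share of genes with a narrow 5' UTR labelled peak (%) among the genes of each list with any peak; points are shares, bars 95% Wilson intervals and numbers in brackets the counts, the dashed line is the background of 9.02% over all genes and the dotted line that of 10.8% over protein-coding genes. The intervals of histone genes, ribosomal proteins and cell cycle genes lie above both lines, and those of all other lists include the dotted one.

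Most genes with a narrow 5' UTR labelled peak also had a peak at the other end. A 3' UTR labelled peak was found in 780 of the 1114 genes (70%, 67.3 to 72.6%), and in 62.5% of all genes with a peak. These 2 shares are not like for like. Of the 1114 genes 1103 were protein-coding, but of all 12351 genes with a peak only 10174 were. The share over protein-coding genes alone was not computed, so no excess can be read from the 2 values. In these 780 genes the highest narrow 5' UTR labelled fold had a median of 2.70 and the highest 3' UTR labelled fold one of 1.96, and the former was the higher in 484 (62.1%, 58.6 to 65.4%). In the 455 genes with exactly 1 peak of each kind the medians were 2.79 and 1.89, and the 5' UTR labelled one was the higher in 68.8% (64.4 to 72.9%). The 334 genes without a 3' UTR labelled peak had a median 5' fold of 3.79. In 234 genes (21%) the narrow 5' UTR labelled peaks were the only ones in the list.

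Single genes went either way. In Mapk3 the fold was 53.1 at the 5' end and 1.76 in the 3' UTR, and in Mbd3 33.2 and 1.79. Zbp1 had 1.38 at the 5' end and up to 55 in peaks labelled 3' UTR. Tmsb10 had 2.19 and 2.26, close to each other.

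Some peaks were not independent regions. There were 1016 genes with 1 narrow 5' UTR labelled peak, 88 with 2 and 10 with 3 or more. Among the 1225 peaks, 102 overlapped another one, and merging left 1172 regions. The 2 peaks of Hnrnpm, for example, were shifted by 1 nt and had the same fold of 4.88. An exon of a gene on the other strand lay in the span of 189 peaks (15.4%), and 28.0% (22.1 to 34.8%) of these were strong against 26.7% (24.1 to 29.5%) of the other 1036. Rps25 and Trappc4 begin head to head on chromosome 9, and a peak of Rps25 at chr9:44407408-44407498 (fold 3) lay inside a peak of Trappc4 at chr9:44407362-44407511 (fold 2.77). The strandedness of the libraries is not given in the sources used here, so such pairs cannot be told apart.

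The span limit cut through a continuous range. There were 20 peaks with a span of exactly 300 nt and 11 with 301 nt. Of the former, the 3 with the lowest p were at Gphn with a fold of 14.5, Golga7 with 7.35 and E2f2 with 7.11. Of the latter, they were at Rps7 with 1.79, Nsd3 with 226 and Ctsh with 1.72.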

How the data were processed

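The 4 libraries (2 m6A immunoprecipitates, 2 input RNA) came from splenic NK cells. Per the study's methods, trimmed reads went through HISAT2 (alignment), exomePeak (peaks) and ChIPseeker (region labels). How replicates were combined is not given in the sources used here. The deposited list (GRCm38) gives per peak a fold enrichment, the authors' ratio of immunoprecipitate to input, a deposited score equal to the log10 of the unadjusted peak-calling p-value, and the genomic span. It has 0 columns per sample, so no test across samples was made and nothing was normalised again.

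Of 20751 rows, 24 repeated rows were dropped. Scripts in Python 3.11.15 (pandas 2.3.3, scipy 1.17.1) placed the exonic part of each peak on the longest coding isoform (GENCODE M21) of the assigned gene by its centre. DRACH, GGAC and GC content were counted on the transcript strand of GRCm38.p6 (RefSeq), overlapping matches included. Shares have 95% Wilson intervals and medians 95% order-statistic intervals, which cover counting error only and treat peaks as independent. Placement and motif counts were tested on simulated data. The common step was the value between 1.5 and 2.5 that fitted the most strong folds of the whole list.

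Named were the 10 peaks of lowest p, the 10 of highest fold with p under 0.001 on a coding exon, up to 6 genes per list and up to 6 genes with several peaks by lowest p, and the 3 peaks nearest the span limit on either side, ties by lowest p. Members, lists and tests were chosen with earlier results of these data known.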

Additional observations from a re-analysis of the deposited data

How the results depend on the processing

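No paired analysis was possible because the list gives no value per library, and for the same reason no replicate could be left out. Only the median distance from the start codon could change sign, and it stayed negative under every alternative. With peaks of at most 200 nt only, 22.9% were strong, the median fold was 2.71, 33.4% had a p under 0.001, the median centre lay 88 nt from the transcript start and 66.4% held a DRACH site. With p under 0.001 only, 532 peaks remained, of which 22.9% were strong, with a median fold of 2.32, 69.5% centred in the 5' UTR, medians of 118 nt from the transcript start and -62.5 nt from the start codon, a DRACH site in 77.0%, a median GC content of 66.1% and a 3' UTR labelled peak in 75.4% of genes. A fold of at least 2 was reached by 71.0% and of at least 10 by 8.98%. On the coding transcript with the nearest start, 78.7% were centred in the 5' UTR, with medians of 76 and -103 nt from start and start codon. GGAC alone was found in 46.6%, a DRACH site in 77.4% of whole spans and in 67.9% of the 100 nt around the centre. Only 62.0% of genes had a 3' UTR labelled peak with p under 0.001. Chosen after seeing the data were merged overlapping peaks and the alternatives for the transcript start. The strong share with the start was 37.1% at p under 0.001 and 17.8% off whole multiples of the common step. Without the start it was 7.25% at a span of at most 200 nt and 3.10% off whole multiples. Fractions of the step were not left out. In each alternative the strong share was higher with the start. Depth is unknown, so whether a gene without a peak was covered cannot be said.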
